A study of Mus musculus with 18 samples.

Results

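Mylip, Srebf1, Srebf2, Scap, Insig1, Insig2, Stard4, Lrp8 and Vldlr were examined in mouse bone marrow-derived macrophages as a set of genes linked to the LDL receptor and to the sterol response. They were taken by gene symbol and are 9 of the 31053 genes listed, all 9 of which passed the filter on low counts. RNA was sequenced from macrophages of Slc7a7-/- mice (knockout) and Slc7a7+/+ mice (wild type), 3 mice of each, grown in control medium (Control), with acetylated LDL (AcLDL) or with oxidized LDL (OxLDL). Each mouse gave a library in each of the 3 media, so that there were 6 groups of 3 libraries and 18 in all. The mice were 12 weeks old, on a C57BL/6J background, and the marrow was cultured for 7 days with M-CSF or L-cell conditioned medium before 24 h of exposure to 50 μg/mL AcLDL, 100 μg/mL OxLDL or vehicle, per the study's methods. Deletion of Slc7a7, which encodes a subunit of an amino acid transporter, was driven by LysM-Cre, a Cre active in myeloid cells.

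SREBPs are transcription factors made as membrane proteins of the endoplasmic reticulum. When sterols are low, Scap escorts them to the Golgi, where they are cut and released to switch on genes of sterol and fatty acid synthesis and of LDL uptake, and when sterols are high, Insig proteins hold Scap back. Mylip, a ubiquitin ligase whose gene is a target of the liver X receptors (LXR), marks the LDL receptor and its relatives Vldlr and Lrp8 for degradation. Macrophages take up modified LDL through scavenger receptors, which are not under this sterol feedback.

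In GRCm38 the genes of SREBP control lie at chr15:82147181-82205379 (Srebf2, plus strand), chr11:60199089-60222581 (Srebf1, minus), chr9:110333288-110384950 (Scap, plus), chr5:28071363-28078662 (Insig1, plus) and chr1:121304353-121332589 (Insig2, minus). Mylip lies at chr13:45389742-45412022 (plus), Stard4 at chr18:33199355-33213862 (minus), Lrp8 at chr4:107802261-107876840 (plus) and Vldlr at chr19:27216484-27254231 (plus). Counts are per gene over all annotated exons, so isoforms were not told apart.

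The libraries held 1043492 to 1768816 estimated counts each (median 1466145), where a gene with no count could still have up to 3, or 1.70 to 2.87 CPM (counts relative to the library total). These limits cover counting error only. Levels below are CPM after TMM scaling, and fold changes are on the log2 scale from edgeR's quasi-likelihood F test over 12290 genes, with p-values adjusted by Benjamini-Hochberg over all of them and 0.05 as the threshold. The targeted gene, Slc7a7, had a mean of 14.95, 25.3 and 28.0 CPM in wild type cells in control medium, AcLDL and OxLDL, and of 6.58, 3.27 and 9.91 CPM in knockout cells. It was lower in the knockout in each medium without being lost, and counts ranged from 3 to 17 in the 9 knockout libraries. The 6 macrophage markers (Csf1r, Adgre1, Cd68, Itgam, Mertk and Fcgr1) were detected and summed to 3320 to 6561 CPM, while 4 lymphoid markers summed to at most 0.842 CPM, 3 erythroid markers to at most 1.79 CPM, 4 dendritic cell markers to at most 4.05 CPM and 5 stromal markers to at most 26.9 CPM. All wild type libraries carry earlier library numbers than the knockout libraries, so that library order and genotype cannot be told apart.

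Per kilobase of exon, Insig1 was the most abundant of the 9 genes in wild type cells in control medium, at 41.5 ± 1.19 CPM per kb (SD, n = 3). Srebf2 followed at 30.2 ± 1.79 CPM per kb, and then Mylip at 15.7 ± 2.86, Srebf1 at 11.4 ± 0.876 and Stard4 at 11.2 ± 0.687 CPM per kb. Scap, Insig2 and Lrp8 were lower, at 5.94 ± 0.217, 5.61 ± 2.18 and 2.64 ± 0.792 CPM per kb. Srebf1 and Stard4 did not differ beyond their spread, nor did Scap and Insig2. Vldlr, the very low density lipoprotein receptor, was at or near the limit of detection. Its counts were 1, 3 and 6 in wild type Control, 0, 0 and 5 in wild type AcLDL, 3, 1 and 0 in wild type OxLDL, 3, 0 and 0 in knockout Control, 0, 2 and 0 in knockout AcLDL and 3, 0 and 0 in knockout OxLDL. No difference in Vldlr was detectable at this depth, and no fold is given for it.

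**Figure D1:**
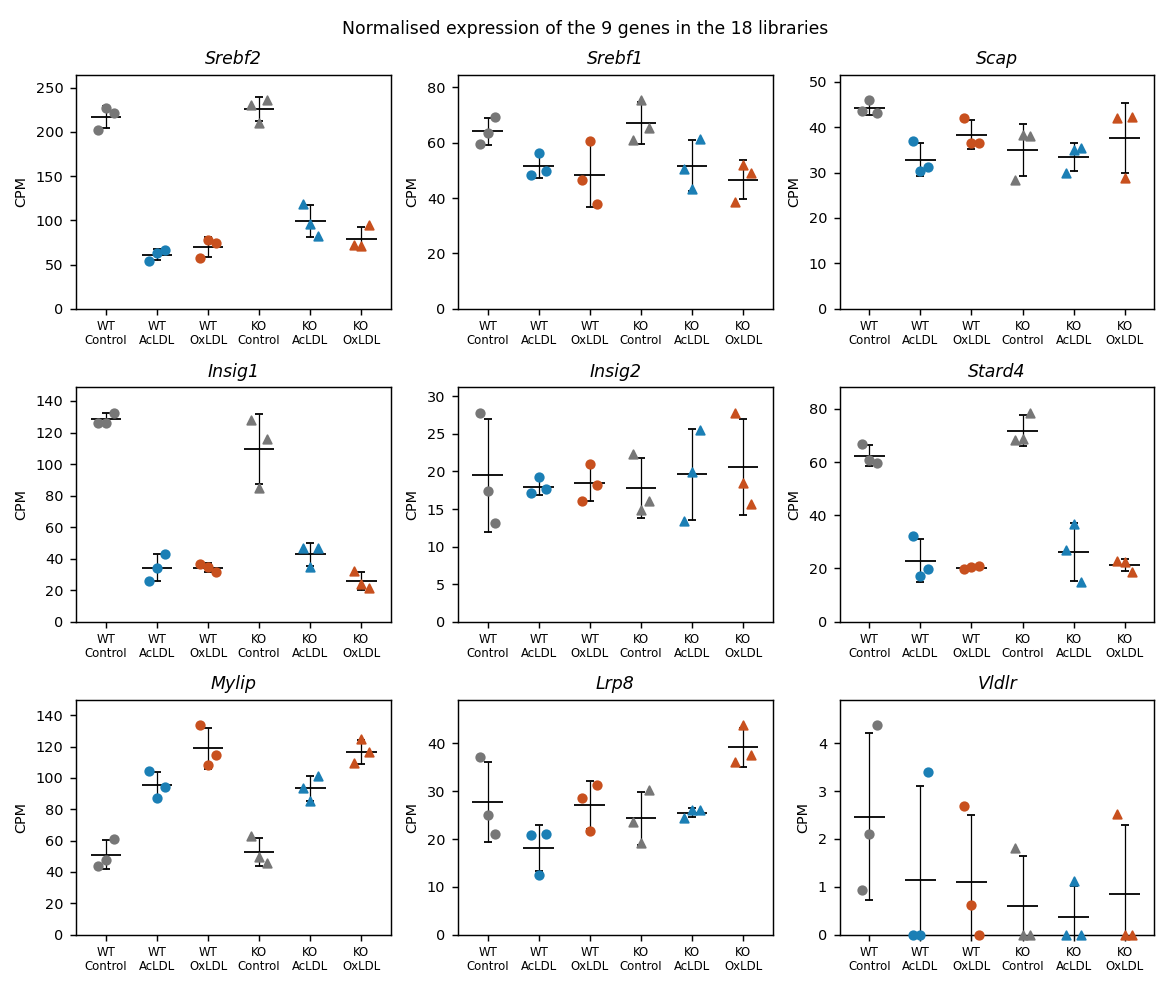
Expression of each of the 9 genes in CPM (y axes, from 0) in the 18 libraries, by group (x axes). Circles are wild type and triangles knockout libraries, grey is Control, blue AcLDL and orange OxLDL, and bars are the mean and SD of 3 libraries. Srebf2, Insig1 and Stard4 sit lower and Mylip higher in every LDL library than in every Control library of the same genotype.

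Both kinds of LDL were compared with control medium in each genotype to ask how the sterol feedback genes respond to lipid loading. In wild type and in knockout cells, with AcLDL and with OxLDL, the same 4 of the 9 genes passed the test: Srebf2, Insig1 and Stard4 fell and Mylip rose. The 4 comparisons share their control libraries in pairs, so they are given side by side and are not independent of each other. Beside 1 of 9 genes higher and 3 of 9 lower in each, the shares of all genes tested were 0.0651% higher and 0.407% lower for wild type AcLDL, 0.277% and 1.07% for wild type OxLDL, 0.0732% and 0.448% for knockout AcLDL, and 0.659% and 1.66% for knockout OxLDL. In bulk RNA, fewer cells of a type and less RNA per cell cannot be told apart.

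Srebf2 encodes the SREBP that mainly drives sterol synthesis and LDL uptake. Its level in wild type cells was 202, 227 and 222 CPM in Control, 54.1, 63.5 and 66.7 CPM in AcLDL and 57.3, 77.8 and 75.0 CPM in OxLDL. Every LDL library was below every Control library, and the log2 fold changes were -1.81 ± 0.16 (SE, adjusted p = 6.84e-08) with AcLDL and -1.62 ± 0.15 (adjusted p = 2.36e-07) with OxLDL. Knockout cells held 231, 210.5 and 237 CPM in Control, 118, 96.1 and 82.3 CPM in AcLDL and 72.4, 71.2 and 94.8 CPM in OxLDL. The groups again did not overlap with Control, and the changes were -1.20 ± 0.14 (adjusted p = 2.57e-05) and -1.50 ± 0.15 (adjusted p = 4.48e-07). Relative to the Control mean, Srebf2 was thus lower by 71.7% and 67.7% in wild type and by 56.3% and 64.8% in knockout cells.

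Insig1, the Insig gene that is itself an SREBP target, moved with it. It stood at 126, 126 and 133 CPM in wild type Control, at 25.6, 34.0 and 42.8 CPM with AcLDL and at 36.7, 34.6 and 31.3 CPM with OxLDL. Both LDL groups lay far below Control, with changes of -1.89 ± 0.19 (adjusted p = 1.01e-06) and -1.91 ± 0.19 (adjusted p = 5.44e-07). In the knockout, Insig1 was at 128, 84.8 and 116 CPM in Control, 46.5, 34.4 and 47.0 CPM with AcLDL and 31.99, 23.95 and 21.4 CPM with OxLDL. Here the 2 LDL groups did not overlap with each other either, and the changes from Control were -1.37 ± 0.18 (adjusted p = 9.54e-05) and -2.11 ± 0.20 (adjusted p = 1.55e-07). Other loci, Gm37784 and Gm48840, share 3.46% of the 31-base words of Insig1, so that some of its reads could be split with them.

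Stard4, a carrier that moves sterol between membranes, made up the third of the genes that fell. Wild type levels were 66.9, 60.7 and 59.8 CPM in Control, 32.3, 16.99 and 19.7 CPM with AcLDL and 19.7, 20.4 and 20.9 CPM with OxLDL. The change was -1.47 ± 0.24 (adjusted p = 0.00175) and -1.61 ± 0.24 (adjusted p = 0.000259), with no overlap. Knockout levels were 68.1, 68.7 and 78.7 CPM in Control, 26.8, 36.7 and 15.1 CPM with AcLDL and 22.7, 22.6 and 18.5 CPM with OxLDL. These changed by -1.45 ± 0.22 (adjusted p = 0.000731) and -1.76 ± 0.23 (adjusted p = 4.22e-05), and the AcLDL libraries spread more widely than the OxLDL libraries in both genotypes.

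Mylip was the gene that rose. Its wild type levels were 43.6, 47.5 and 61.2 CPM in Control, 104, 87.2 and 93.9 CPM with AcLDL and 134, 108 and 115 CPM with OxLDL. All treated libraries exceeded all Control libraries, and the changes were 0.89 ± 0.16 (adjusted p = 0.00398) and 1.21 ± 0.16 (adjusted p = 2.94e-05), or 1.87 and 2.34 times the Control mean. The knockout libraries read 62.7, 49.5 and 45.8 CPM in Control, 93.8, 85.0 and 101 CPM with AcLDL and 109, 125 and 116 CPM with OxLDL. Changes there were 0.82 ± 0.15 (adjusted p = 0.00660) and 1.15 ± 0.15 (adjusted p = 3.85e-05), or 1.77 and 2.22 times. The AcLDL calls were the least stable of the set. In wild type cells the call was lost when only the groups compared were fitted (adjusted p = 0.0738), and in knockout cells it was lost without replicate 2 or 3 of Control (adjusted p = 0.0582 and 0.0699) or replicate 3 of AcLDL (adjusted p = 0.0690). Over all alternatives the adjusted p ran from 0.000208 to 0.0738 and from 0.000251 to 0.0699.

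**Figure D2:**
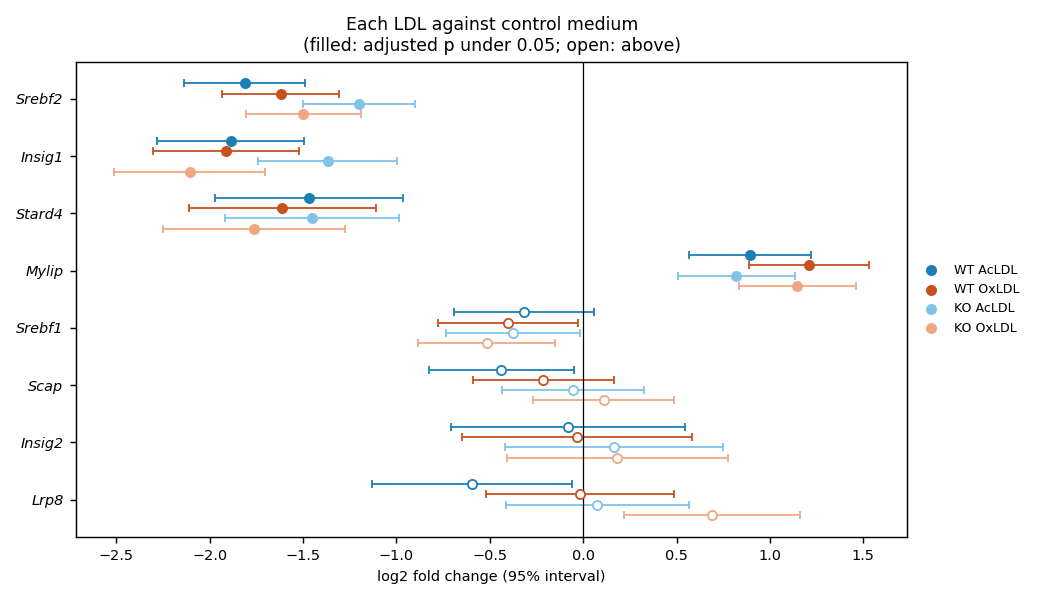
Log2 fold change against Control (x axis) with its 95% interval for 8 of the 9 genes (y axis), by genotype and LDL, with Vldlr left out for its low counts. Filled points passed an adjusted p of 0.05, and the filled points are those of Srebf2, Insig1 and Stard4, between -2.11 and -1.20, and of Mylip, between 0.82 and 1.21.

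The other Insig gene and the SREBP escort did not pass the test against Control in either genotype. Insig2, a second anchor of Scap, ranged from 13.1 to 27.9 CPM over all 18 libraries, and its 4 estimates lay between -0.08 and 0.18 with all groups overlapping. Its counts were low, at 17 to 44 per library, and the 95% interval of the wild type AcLDL change reached from -0.71 to 0.54. Scap ranged from 28.3 to 46.1 CPM. Its wild type levels of 43.6, 46.1 and 43.0 CPM in Control were all above the 37.0, 30.3 and 31.3 CPM of AcLDL, but the change of -0.44 ± 0.19 did not pass the adjustment (adjusted p = 0.588). In knockout cells the Scap estimates were -0.05 and 0.11.

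Srebf1, whose products favour fatty acid synthesis and which is also an LXR target gene, lay lower with LDL in every mouse but did not pass the test. Its levels were 59.4, 63.5 and 69.3 CPM in wild type Control, 48.4, 56.2 and 49.6 CPM with AcLDL and 46.6, 60.5 and 37.8 CPM with OxLDL. The OxLDL group overlapped with Control, and the estimates were -0.32 (adjusted p = 0.766) and -0.40 (adjusted p = 0.442). Knockout levels were 60.9, 75.5 and 65.1 CPM in Control, 50.4, 43.3 and 61.5 CPM with AcLDL and 38.7, 52.0 and 49.1 CPM with OxLDL. The knockout OxLDL estimate of -0.52 ± 0.18 had an adjusted p of 0.157, and the fit that keeps each mouse as a replicate block gave -0.53 with an adjusted p of 0.0365 (0.0365 to 0.509 over all alternatives). That fit calls 7.18% of all genes in this comparison. Rai1, which overlaps Srebf1 on the opposite strand, had 13 to 48 counts per library, against 46 to 122 for Srebf1.

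Lrp8, a receptor of the LDL receptor family that binds reelin and apolipoprotein E, passed the test in no comparison with Control, and its estimates differed in sign. Wild type levels were 37.1, 25.1 and 21.1 CPM in Control, 20.9, 12.6 and 21.1 CPM with AcLDL and 28.7, 21.6 and 31.3 CPM with OxLDL. The groups overlapped or lay next to each other, with estimates of -0.60 (adjusted p = 0.588) and -0.02 (adjusted p = 0.990). In the knockout, Lrp8 was at 23.5, 19.2 and 30.3 CPM in Control, 24.4, 26.1 and 26.1 CPM with AcLDL and 36.2, 43.8 and 37.6 CPM with OxLDL. The knockout OxLDL libraries were above the other knockout libraries, and the change from Control was 0.69 ± 0.23 (adjusted p = 0.136). It passed with the mouse as a replicate block (adjusted p = 0.0327) and when only the groups compared were fitted (adjusted p = 0.0400, 6.62% of genes called), and the range over all alternatives was 0.0327 to 0.444. Lrp8os1 and Lrp8os2, antisense to Lrp8, had 0 to 2 counts in any library.

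Summed markers of cell types moved with some of these comparisons. The 6 neutrophil markers (S100a8, S100a9, Ngp, Ltf, Camp and Retnlg) summed to 72.9 to 125 CPM in wild type Control, 78.2 to 216 CPM with AcLDL and 135 to 249.1 CPM with OxLDL. Knockout sums were 52.0 to 140.5 CPM in Control, 24.4 to 57.5 CPM with AcLDL and 61.6 to 112 CPM with OxLDL, and Retnlg was at 0 in all libraries. The neutrophil sum was thus higher than Control with wild type OxLDL and overlapped with Control in the other 3 comparisons. Macrophage markers summed to 5515 to 6561 CPM in knockout Control, to 4764 to 5414 CPM in knockout AcLDL and to 3893 to 4812 CPM in knockout OxLDL, so that the sum was lower with both LDLs. In wild type cells these sums were 4084 to 6511, 4082 to 5223 and 3320 to 5295 CPM and overlapped. The sum weighs its genes unequally. Csf1r ran from 1312 to 3000 CPM and Adgre1 from 795 to 2170 CPM over all libraries, while Mertk and Fcgr1 reached at most 90.6 and 68.0 CPM. Changes of single markers are not given. The 5 stromal markers (Col1a1, Col1a2, Col3a1, Dcn and Pdgfrb) reached 14.6, 14.3 and 26.9 CPM in wild type Control, AcLDL and OxLDL and 2.41, 6.96 and 2.53 CPM in the knockout. The part of any of these markers in the results was not tested.

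The ratio of the paired genes within a library, per kilobase of exon, changed accordingly. Srebf2 was 2.51 to 2.80 times Srebf1 in wild type Control and 0.877 to 1.05 times with AcLDL, and 0.965 to 1.56 times with OxLDL. In the knockout, the ratio was 2.19 to 2.97 in Control, 1.05 to 1.84 with AcLDL and 1.07 to 1.51 with OxLDL. Thus Srebf2 exceeded Srebf1 in every Control library, and the ratio was lower in every LDL library, at 0.877 to 1.84. Insig1 was 5.09 to 11.4 times Insig2 in wild type Control and 6.41 to 8.09 times in knockout Control. With LDL it was 1.68 to 2.72 times in wild type cells, and 1.93 to 3.90 times with AcLDL and 1.29 to 1.54 times with OxLDL in knockout cells. These ratios combine values given above and were not tested.

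**Figure D3:**
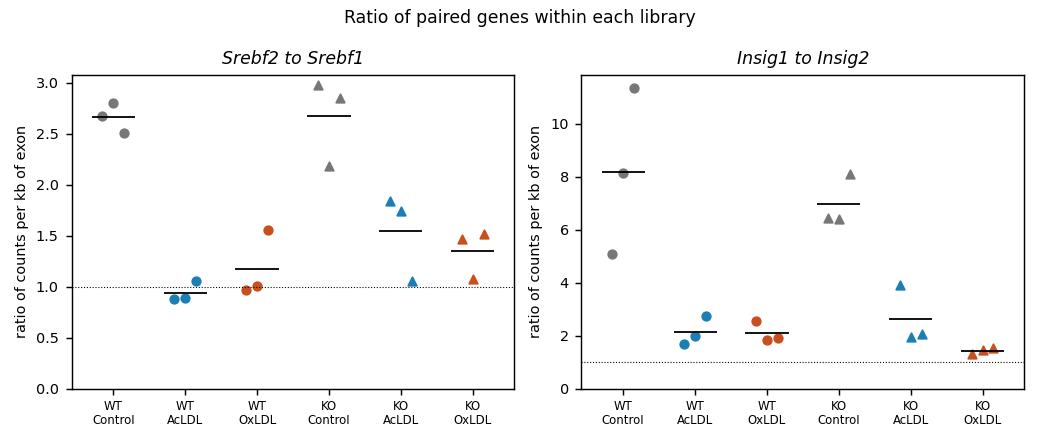
Ratio of counts per kb of exon of Srebf2 to Srebf1 (left) and of Insig1 to Insig2 (right) in each of the 18 libraries (y axes, from 0, dotted line at 1), by group (x axes), with the mean of 3 libraries as a bar. Circles are wild type and triangles knockout. All Control libraries lie above all LDL libraries in both panels.

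Promoter sequences are shown for the genes that moved and had an entry in the RefSeq table (GRCm38.p6), 2 that fell and 1 that rose, since SREBPs act through sterol elements that often lie beside NF-Y and Sp1 sites. Each runs 5′ to 3′ on the plus strand up to the base before the first annotated transcript. Capitals mark the sterol element core TCACNCCA, the NF-Y box CCAAT and the Sp1 box GGGCGG, each on either strand.
Srebf2, chr15:82147019-82147180: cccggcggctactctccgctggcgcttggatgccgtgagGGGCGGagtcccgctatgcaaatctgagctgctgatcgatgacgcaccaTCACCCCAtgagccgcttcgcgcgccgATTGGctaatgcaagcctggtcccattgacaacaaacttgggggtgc
Insig1, chr5:28071162-28071362: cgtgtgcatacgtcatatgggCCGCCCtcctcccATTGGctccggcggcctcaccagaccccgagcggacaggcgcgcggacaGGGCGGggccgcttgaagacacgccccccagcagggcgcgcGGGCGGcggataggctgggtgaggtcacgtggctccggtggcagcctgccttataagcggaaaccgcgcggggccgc
Mylip, chr13:45389492-45389741: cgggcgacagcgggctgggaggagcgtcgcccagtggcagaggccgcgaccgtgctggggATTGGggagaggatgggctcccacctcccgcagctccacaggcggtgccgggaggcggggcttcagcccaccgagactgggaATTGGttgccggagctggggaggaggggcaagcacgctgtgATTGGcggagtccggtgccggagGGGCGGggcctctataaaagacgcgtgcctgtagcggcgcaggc

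Srebf2 was the only member with a sterol element core in the 250 bases before a listed start, on the plus strand at -162 to -155 from the RefSeq start, with an NF-Y box on the other strand at -135 to -131. This core is held by 3.67% of the 32851 promoters in the table. That share is per promoter, while up to 3 windows were searched for a member, so it is not the rate for the set. The core was shortened after the sequences were seen: the longer form TCACNCCAC, in 1.05% of promoters, was in none of the members' windows. The NF-Y box stood in 33.85% and the Sp1 box in 32.74% of promoters, so that the NF-Y boxes of Insig1 and Mylip are common features. Insig1 also held the E-box CACGTG, at -101 to -96, as did 6.02% of promoters. Mylip, the LXR target, had 3 NF-Y boxes and no match to the DR4 motif, which 0.02% of promoters held. Searches covered both strands, a match is a description of letters only, and Stard4 had no entry.

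OxLDL was next set beside AcLDL in the same genotype, where the 2 preparations were given at different doses. No member passed the test in wild type cells (0.00814% of all genes called, 1 gene) or in knockout cells (0.0651%, 8 genes), by edgeR or by DESeq2. An unadjusted p under 0.05 was found for 2 and 3 members, beside 632 and 682 of all 12290 genes tested. The largest estimate was that of Insig1 in knockout cells, -0.74 ± 0.21 with a 95% interval of -1.18 to -0.30 (adjusted p = 0.532). It passed with the mouse as a replicate block (-0.75, adjusted p = 0.0253, and 0.0253 to 1 over all alternatives), a fit that calls 1.38% of genes. In wild type cells the Insig1 estimate was -0.03, with an interval of -0.47 to 0.42. Mylip was 1.25 times as high with OxLDL as with AcLDL in both genotypes, with no overlap between the groups, and its estimates of 0.32 and 0.33 had adjusted p of 0.965 and 0.879. Lrp8 estimates were 0.58 and 0.61, with adjusted p of 0.952 and 0.741. The Lrp8 groups did not overlap either, at 1.496 times the AcLDL mean in wild type and 1.534 times in knockout cells. Those of Insig1 did not overlap in knockout cells but did in wild type cells. How many of all genes separated in this way between the LDLs was not counted, so no conclusion is drawn from it.

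Knockout and wild type cells were compared in each medium to ask whether loss of Slc7a7 shifts these genes. No member passed by edgeR or DESeq2 in Control (0.00814% of all genes called), AcLDL (0.0163%) or OxLDL (0.00814%). An unadjusted p under 0.05 was found for 0, 1 and 1 members, beside 491, 601 and 587 of all 12290 genes tested. In Control, Srebf2 differed by 0.06 with a 95% interval of -0.23 to 0.34, and Mylip by 0.05 with an interval of -0.29 to 0.39. Insig1 and Stard4 differed by -0.23 (-0.57 to 0.11) and 0.20 (-0.23 to 0.64). With AcLDL, Srebf2 was at 82.3 to 118 CPM in knockout and 54.1 to 66.7 CPM in wild type cells, which did not overlap, and its difference of 0.67 ± 0.16 had an adjusted p of 0.430. Without the filter on low counts that difference passed (adjusted p = 0.0429, 0.203% of genes called, and 0.0429 to 1 over all alternatives). With OxLDL, Lrp8 was higher in each knockout library than in each wild type library, by 0.53 ± 0.23 (adjusted p = 0.933). The genotypes also did not overlap for Lrp8 with AcLDL (1.405 times the wild type mean), or for Stard4 (1.15 times) and Scap (0.789 times) in Control. The share of all genes that separated in this way was not counted, so no conclusion is drawn from it.

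Whether the genotypes responded unequally to an LDL was tested directly, as an interaction. Neither edgeR nor DESeq2 called any member, with an edgeR share over all genes of 0% for both LDLs. In each, 1 member had an unadjusted p under 0.05, beside 327 (AcLDL) and 338 (OxLDL) of all 12290 genes tested. With the mouse as a replicate block, edgeR called 0.0407% of all genes (5) for AcLDL and 0% for OxLDL, and again no member. The unadjusted p of that fit was 0.00136 for Srebf2, 0.0187 for Insig1 and 0.0477 for Lrp8 with AcLDL, and 0.0284 for Lrp8 with OxLDL. For AcLDL, the Srebf2 estimate was 0.61 ± 0.21 with a 95% interval of 0.17 to 1.05 (adjusted p = 0.9999), in the direction of a smaller fall in the knockout. Insig1 had an estimate of 0.52 and an interval of -0.03 to 1.07, and Stard4 and Mylip stood at 0.02 and -0.07. For OxLDL, the Lrp8 estimate was 0.71 ± 0.33 (adjusted p = 1), with a level that was higher than Control in 3 of 3 knockout mice and in 1 of 3 wild type mice. Srebf2, Insig1, Stard4 and Mylip had OxLDL estimates of 0.12, -0.19, -0.15 and -0.06, all with intervals across 0.

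**Figure D4:**
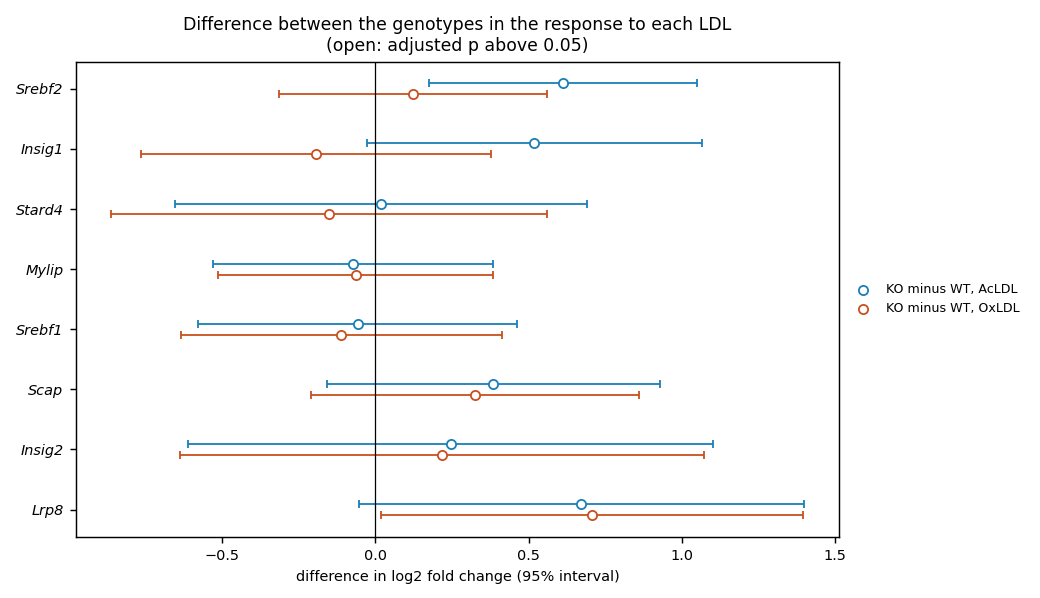
Knockout minus wild type difference in the log2 response to AcLDL (blue) and OxLDL (orange), x axis, with its 95% interval for 8 of the 9 genes (y axis). Open points did not pass an adjusted p of 0.05, which is all of them, and the intervals that leave out 0 are those of Srebf2 for AcLDL, 0.17 to 1.05, and of Lrp8 for OxLDL, 0.02 to 1.40.

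The pathway around the 9 genes was described by lists chosen with earlier results known, none of which holds a member. Of 20 genes of sterol synthesis, the enzymes that SREBP2 switches on, 14 and 16 fell in wild type cells with AcLDL and OxLDL and 12 and 16 in knockout cells, and none rose. The list's median log2 fold changes were -1.87, -2.04, -1.44 and -2.01, against -0.003 to 0.008 for all genes tested. Idi1, which makes the isoprenoid building block, fell, with changes of -2.65 and -3.14 in wild type and -1.83 and -3.36 in knockout cells. Sqle, which oxidizes squalene, changed by -2.50, -3.22, -1.92 and -3.05 in the same order. Srebf2, Insig1 and Stard4 moved in the direction of this list. Insig1 lay further from 0 than the list's median in wild type AcLDL and knockout OxLDL, and Stard4 in knockout AcLDL, while the other estimates of these 3 genes were nearer to 0.

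In knockout cells, Idi1 was lower with OxLDL than with AcLDL, by -1.52 on the log2 scale (adjusted p = 0.00313). That call was lost without replicate 3 of knockout OxLDL (-1.50, adjusted p = 0.0579) and held under the other alternatives, with an adjusted p of 1.50e-06 to 0.0315. The median of the 20 sterol synthesis genes was -0.62 there, beside -0.74 for Insig1. For the genotype difference in the AcLDL response, none of the 20 passed in edgeR or DESeq2. Of the list, 5 had an unadjusted p under 0.05, beside 327 of all 12290 genes tested. Of these 20 estimates, 19 were above 0, with a median of 0.52 beside the 0.61 of Srebf2 and -0.004 for all genes. The difference draws on both media. Knockout minus wild type was below 0 for 17 of the 20 in Control (median -0.14) and above 0 for 18 with AcLDL (median 0.34). The 20 estimates come from the same libraries and are not independent of each other, and the count of signs was not tested.

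Of 15 genes of fatty acid synthesis, the program more tied to SREBP1, 4, 4, 3 and 5 fell in the 4 comparisons with Control and none rose. Fasn, the fatty acid synthase, changed by -1.04, -1.31, -0.99 and -1.22 while Srebf1 itself stayed between -0.52 and -0.32. Aacs, which supplies acetoacetyl-CoA, changed by -1.54, -1.79, -1.26 and -1.35. The list does not tell the SREBPs apart, and which of them these changes follow was not tested. Fitting only the groups compared gave 2 genes for wild type AcLDL and 5 for knockout AcLDL, the replicate block gave 5 for knockout AcLDL (2.50% of all genes called in either direction), and leaving out replicate 2 or 3 of knockout OxLDL gave 3 for knockout OxLDL.

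Of 7 LXR target genes other than Mylip and Srebf1, 3, 2, 3 and 3 rose. Abca1 and Abcg1, the sterol exporters, rose in all 4, by 2.02, 1.62, 1.43 and 1.59 for Abca1 and by 1.92, 2.01, 1.37 and 1.72 for Abcg1. Arl4c, a small GTPase gene, had estimates of 0.80, 0.64, 0.97 and 0.96, of which that in wild type OxLDL did not pass. The Mylip estimates, 0.89, 1.21, 0.82 and 1.15, were below those of Abca1 and Abcg1 in each comparison and above those of Arl4c in 3 of 4, and these differences were not tested. Nr1h3, which encodes LXRα, fell with OxLDL in wild type (-0.88, adjusted p = 0.0217) and knockout cells (-0.88, adjusted p = 0.0138). The wild type call was lost when only the groups compared were fitted, and without replicate 2 or 3 of Control or of OxLDL. The knockout call was lost without replicate 1 of Control or replicate 2 or 3 of OxLDL.

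Other genes of SREBP processing were mainly the proteases, COPII coat and ubiquitin ligase genes. Of these 20, none passed by edgeR or DESeq2 in 3 of the comparisons, wild type AcLDL and OxLDL and knockout AcLDL. There 2, 2 and 1 had an unadjusted p under 0.05, beside 901, 1233 and 926 of all 12290 genes tested. In knockout OxLDL, Sec24a, a COPII coat subunit, passed with 0.61 (adjusted p = 0.0470) but not with DESeq2 or when any library of those groups was left out. Among 12 tested relatives and partners of the LDL receptor, only Lrp12 in wild type OxLDL passed (0.77, adjusted p = 0.0192), a call lost when only the groups compared were fitted and without replicate 2 of Control or replicate 1 of OxLDL. With the replicate block, 1, 1, 3 and 4 of the 12 were higher in the 4 comparisons. That fit calls 2.16%, 4.39%, 2.50% and 7.18% of all genes there, in either direction. None of 15 other sterol transport genes passed in edgeR or DESeq2, beside changes of -1.76 to -1.45 for Stard4. In the 4 comparisons 2, 1, 0 and 2 of the 15 had an unadjusted p under 0.05. Of all 12290 genes tested, 901, 1233, 926 and 1510 did. The replicate block called 1 of the 15 higher in each OxLDL comparison and 1 lower in knockout OxLDL. Its shares of all genes there are 4.39% in wild type and 7.18% in knockout cells, in either direction.

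**Figure D5:**
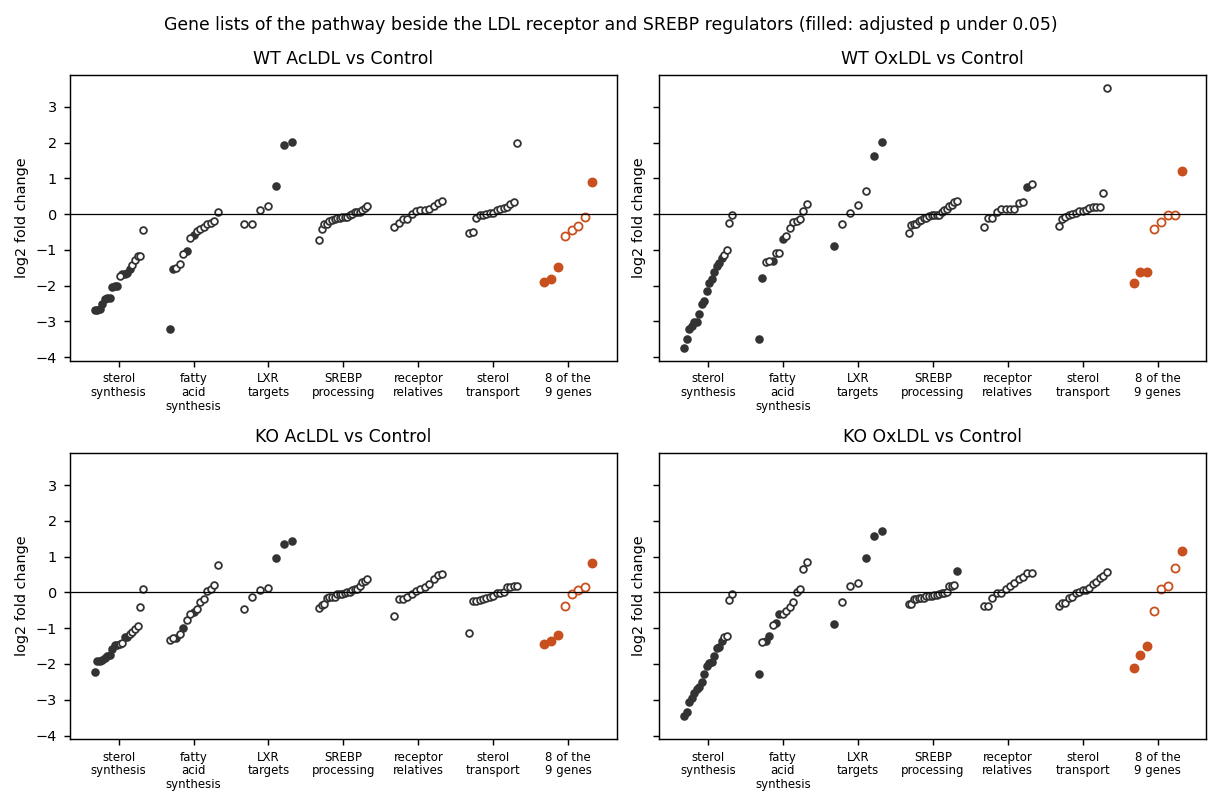
Log2 fold change against Control (y axes) of each gene of 6 lists (black) and of 8 of the 9 genes (orange), 1 panel per comparison, with genes ordered by value within a list along the x axis. Filled points passed an adjusted p of 0.05. Sterol synthesis genes lie below 0, apart from Ebp at 0.10 in knockout AcLDL, with medians of -2.04 to -1.44, and LXR targets hold the highest filled points in each panel.

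Over the 18 libraries, the profile of log2 CPM most like that of Insig1 was that of Idi1 (Pearson's r = 0.97), followed by Fdps (0.96). Srebf2 was most like Lss (0.96) and Msmo1 (0.95), and Stard4 most like Cyp51 (0.94), Hcls1 (0.93) and Msmo1 (0.93). Mylip was closest to R3hdm1 (0.90), Abcg1 (0.89) and the iron exporter gene Slc40a1 (0.89). Srebf1 stood nearest to Rrad (0.86), Tapbp (0.86) and Atg9a (0.84). For Insig2, Scap and Lrp8 the highest r was 0.83, 0.77 and 0.74. These are descriptions over libraries that share media, mice and depth.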

How the data were processed

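Stranded total RNA libraries were trimmed (Trim Galore), aligned (STAR, mm10) and quantified on the transcripts of Ensembl release 93 by the authors, whose processing notes also name Salmon. The deposited table holds estimated counts for each gene, without normalization. Tool versions, and how strand was set in counting, are not given in the sources used here.

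Counts were rounded. Genes were kept with filterByExpr (minimum count 2, minimum total 10), and 6 groups of 18 libraries were fitted together with edgeR 4.0.16 (TMM, quasi-likelihood F test, Benjamini-Hochberg over 12290 genes). DESeq2 1.42.0, other scalings and filters, only the groups compared, left-out libraries and a mouse term were alternatives. R 4.3.3 and Python 3.11.15 were used, and the fit was tested on simulated data. Within groups, replicates differed beyond sampling noise (chi-square over degrees of freedom 2.03 to 12.7). The highest value was that of replicates 1 and 2 of wild type OxLDL. All 18 libraries were kept.

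The labels give the mouse of each library, and a mouse recurs in the 3 media of its genotype. Over 8608 genes, deviations from the group means correlated between libraries of the same mouse by 0.093 to 0.482 in 18 pairs (median 0.282), so blocked values are given where they change a call.

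The members and lists were chosen with earlier results of these data known. The text names all 9 members, Slc7a7, from each list up to 3 called genes with the smallest p per comparison, and up to 3 genes most like each member, where some genes are not reported here. Exon lengths and overlaps come from GENCODE M21 (GRCm38), and promoters from RefSeq. Nr1h3 in knockout OxLDL, Arl4c in wild type OxLDL and Ebp fell outside this rule and were named after their values were seen.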

Additional observations from a re-analysis of the deposited data

How the results depend on the processing

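The 99 values of log2 fold change (9 genes in 11 comparisons) were computed again under 10 to 19 alternatives each, which gave 1351 alternative values. Of these, 1342 stayed on the same side of the threshold, 4 lost a call, all of them Mylip with AcLDL, 5 gained a call, and none turned a called value round. Among values past the threshold in neither fit, 88 changed sign. With the mouse as a replicate block, 1 member (Insig1) passed in knockout OxLDL against AcLDL, where none did without it, Srebf1 and Lrp8 were added in knockout OxLDL against Control, and no other call of a member changed. The block raised the count over all genes against Control from 58, 165, 64 and 285 to 265, 539, 307 and 882, and against AcLDL from 1 and 8 to 90 and 169. For the genotype difference in response, it raised the count from 0 to 5 for AcLDL and left it at 0 for OxLDL. No block could be fitted between genotypes, which are different mice. Without the filter on low counts, 1 member (Srebf2) passed in knockout against wild type AcLDL. Leaving out 1 library at a time gave 40 to 118, 91 to 244, 31 to 50 and 149 to 191 genes against Control, with 3 or 4 of the 9 genes called. Scaling by library size moved the median of all genes by at most 0.061. Low counts limit Vldlr (0 to 6 per library) and Insig2 (17 to 44).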
